A study of Mus musculus with 4 samples.

Results

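Chemokine receptors were followed across the immune cells of a transplanted mouse melanoma grown in the skin, with and without topical glucocorticoid (GC). The set was fixed as 9 genes of the 32285 in the expression table (Ccr2, Ccr7, Ccr8, Cxcr2, Cxcr3, Cxcr4, Cxcr6, Cx3cr1 and Xcr1), each read in every annotated cell cluster and in every tumor. All 9 were listed in the table and all 9 had UMIs (unique molecular identifiers, each 1 captured RNA molecule) in at least 1 cluster. In CD8 T cells, Ccr2 and Cxcr6 fell and Cxcr4 rose after GC, and nearly all Ccr7 UMIs of the GC cells of that class sat in 9 cells. In tumor-associated macrophages (TAMs) Cx3cr1 fell, and Cxcr2, near 0 in that cluster in control tumors and therefore tested only through its GC level, was higher in GC tumors. Cxcr2 in neutrophils did not pass the test, with a log2 difference of -0.03.

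The melanoma line, named 20967, was derived from a C57BL/6 mouse carrying Nras+LSL-G12D and Tyr::CreERT2+/o, in which the tyrosinase promoter places an inducible Cre recombinase in pigment cells, and it is a single line. It was implanted intradermally into wild type C57BL/6 mice, so host immune cells carried none of these alleles, and 5 mice received control treatment and 5 received the potent GC clobetasol propionate. Per the study's methods the ointment or a control cream was spread on the tumor and the skin around it. A figure legend of the study, not its methods, places the collection of these tumors within a week of treatment. The ages of the mice are not given in the sources used here. Live CD45+ cells (all leukocytes) were sorted, each tumor was marked with its own hashtag antibody, and the 5 tumors of a group shared a single 10x channel, loaded with 17100 control or 3500 GC cells. Effects of treatment and of channel cannot be told apart, while tumors within a group were separate animals and served as replicates, numbered 1 to 5 in each group by hashtag.

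The control channel gave 3803 cells with a median of 7440 UMIs per cell, and the GC channel 305 cells with a median of 9163. A control tumor held 347 to 1250 cells and a GC tumor 18 to 111. The deposited annotation divides the cells into 16 clusters, joined here into 12 classes, with CD8 1, CD8 2 and CD8 3 read as CD8 T cells and Monocytes 1 to 3 as monocytes. Levels are given per 10000 UMIs and averaged over the cells of a tumor, so that 1 unit is 1 receptor molecule in 10000 captured. No cell barcode occurred in both channels. Marker genes matched most labels: the neutrophil list summed to 527 per 10000 in the neutrophil cluster and the regulatory T cell (Treg) list to 155 in Tregs. The eosinophil cluster was shallow, at a median of 873.5 UMIs per cell in control tumors, had Epx and Ear2 at 0, and carried neutrophil markers at 114 per 10000 against 20.6 for its own list. DC 1 carried the mature dendritic cell list, at 51.9 per 10000, while DC 2 held conventional and plasmacytoid dendritic markers at near-equal sums of 15.4 and 15.7. Over all CD45+ cells 4 of 5 known GC response genes rose, and Fkbp5, a co-chaperone of the GC receptor that GC induces, rose by 2.52 on the log2 scale (limma adjusted p = 1.73e-04).

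Chemokine receptors are seven-pass membrane proteins coupled to inhibitory G proteins, and a leukocyte crawls up the gradient of whichever ligands its receptors bind. The set a cell carries largely determines where it goes: inflammatory monocytes leave marrow and enter tissue on Ccr2, neutrophils on Cxcr2, and activated dendritic cells leave tissue for the lymph node on Ccr7. In tumors Cxcr3 and Cxcr6 are known on effector and resident CD8 T cells, Ccr8 on Tregs, Xcr1 on cross-presenting dendritic cells, and Cxcr4 on many leukocytes that its ligand Cxcl12 holds in marrow or stroma.

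In the GENCODE M21 annotation of GRCm38, the build equivalent to the mm10 used for the files, 5 of the 9 receptor genes lie close together on chromosome 9. These are Cx3cr1 (ENSMUSG00000052336, chr9:119901616-120069879), Ccr8 (ENSMUSG00000042262, chr9:120092114-120094906), Cxcr6 (ENSMUSG00000048521, chr9:123806475-123811760), Xcr1 (ENSMUSG00000060509, chr9:123852315-123862029) and Ccr2 (ENSMUSG00000049103, chr9:124101950-124113557). Cxcr2 (ENSMUSG00000026180, chr1:74153989-74161246) and Cxcr4 (ENSMUSG00000045382, chr1:128588199-128592293) share chromosome 1, Ccr7 (ENSMUSG00000037944) is at chr11:99144196-99155077 and Cxcr3 (ENSMUSG00000050232) at chrX:101731535-101734269. The long Cx3cr1 gene model overlaps 9 other genes, 3 of them on its own strand, and Cxcr6 overlaps Fyco1 on the opposite strand. Introns were counted, and whether strand was used is not given in the sources used here, so UMIs of Cx3cr1 and Cxcr6 could include some of these neighbors.

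RefSeq promoter windows, the 250 bases before the start site on GRCm38.p6, were at hand for 8 of the 9 receptors, all but Ccr7. They were searched on both strands for the GC receptor half-site AGAACA, which 16.1% of all 32851 windows of this length hold, and 2 of the 8 held it: Cxcr2 and Cxcr4. Both windows are shown because they hold the letters searched for, 5′ to 3′ on the gene's strand, with the half-site in capitals. The Cxcr2 window is chr1:74153744-74153993 on the plus strand, with the half-site starting 96 bases before the start site, and the Cxcr4 window is chr1:128592300-128592549 on the minus strand, with the half-site 185 bases before it.
Cxcr2: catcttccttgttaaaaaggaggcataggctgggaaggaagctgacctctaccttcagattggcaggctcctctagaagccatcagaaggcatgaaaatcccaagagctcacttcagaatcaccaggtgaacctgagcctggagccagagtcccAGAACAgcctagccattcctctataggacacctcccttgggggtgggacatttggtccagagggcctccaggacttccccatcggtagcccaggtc
Cxcr4: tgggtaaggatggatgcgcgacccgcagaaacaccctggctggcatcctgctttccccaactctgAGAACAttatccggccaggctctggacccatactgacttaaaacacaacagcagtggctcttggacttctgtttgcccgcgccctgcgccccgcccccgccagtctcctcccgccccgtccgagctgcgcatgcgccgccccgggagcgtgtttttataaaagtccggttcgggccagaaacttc
The full palindrome, the half-site, any 3 bases and its reverse complement, was in 3 of all windows and in none of the 8. A match of letters is a description of the window and does not show binding.

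In control tumors each receptor had its own distribution over the 16 clusters, described here without a test because the clusters were built from these same transcripts.

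**Figure D1:**
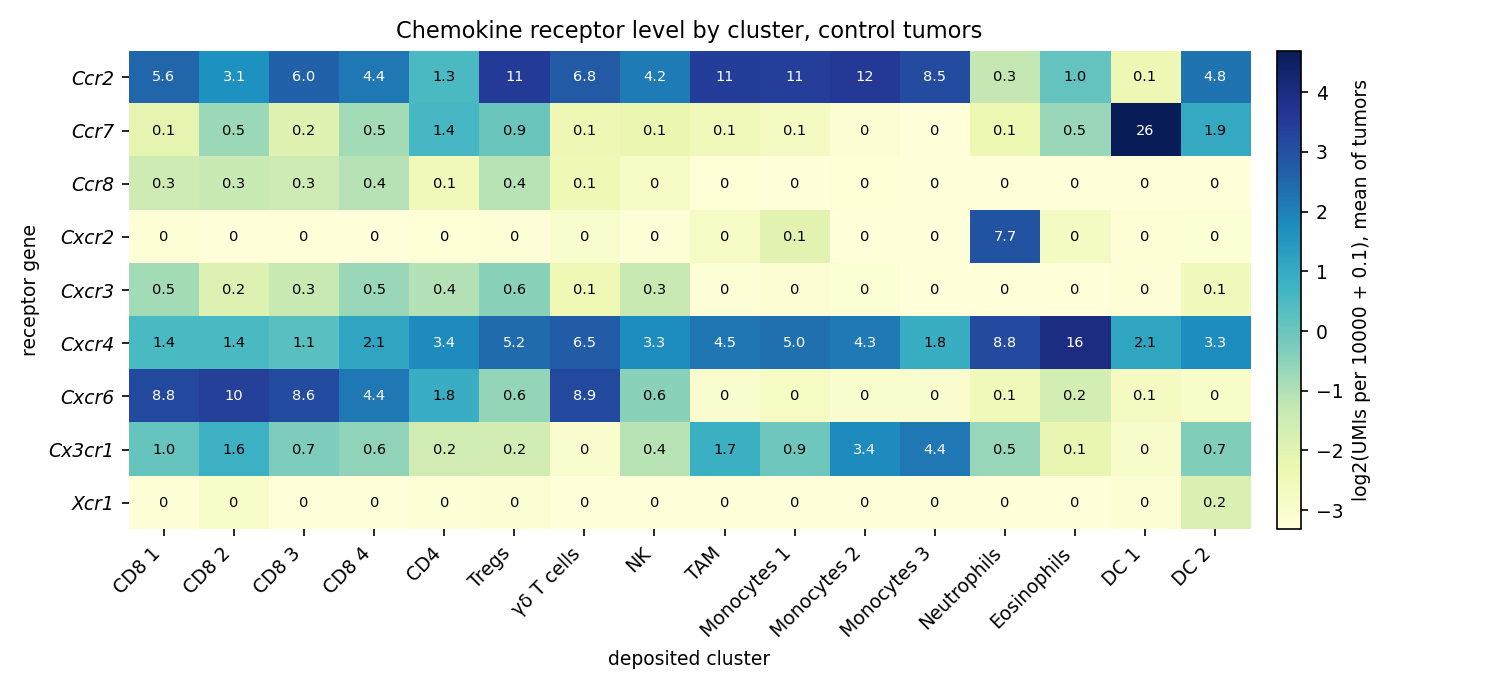
Mean level over control tumors of each of the 9 receptors (rows) in the 16 deposited clusters (columns), printed per 10000 UMIs and colored as log2 of the level plus 0.1. Ccr7 is concentrated in DC 1 at 25.8 and Cxcr2 in neutrophils at 7.72, while Cxcr4 is seen in every cluster with its highest level, 15.9, in eosinophils.

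Of the receptors that bring myeloid cells into tissue, Ccr2, the receptor of Ccl2 and Ccl7, was the broadest. It was highest in Monocytes 2, at 11.7 ± 0.788 (SD, n = 5 tumors), followed by Tregs at 11.4 ± 2.14, TAMs at 10.9 ± 0.910 and Monocytes 1 at 10.7 ± 1.48. The tumor ranges of each of these clusters overlapped those of the next, so they could not be put in order. Monocytes 3 (8.52 ± 3.79) and γδ T cells (6.79 ± 1.86) came next, also within overlapping ranges. Ccr2 in Tregs was thus at the level of the monocyte clusters, not a myeloid property alone. TAMs held 40.1% of all Ccr2 UMIs of control tumors and monocytes 25.0%.

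Cx3cr1, the receptor of fractalkine (Cx3cl1), known on patrolling monocytes, macrophages and differentiated cytotoxic T cells, was highest in Monocytes 3 (4.44 ± 1.39, over the 3 control tumors with at least 5 such cells) and Monocytes 2 (3.37 ± 0.713). TAMs at 1.67 and CD8 2 at 1.62 followed. The tumors of Monocytes 2 (2.50 to 4.10) did not overlap those of TAMs (1.35 to 2.14) but did overlap those of CD8 2 (0.558 to 3.20). Cxcr2, which binds Cxcl1, Cxcl2 and Cxcl5 and releases neutrophils from marrow, stood in neutrophils at 7.72 ± 1.60, with tumors from 5.17 to 9.59. No tumor of another cluster reached that range, and the next cluster, Monocytes 1, was at 0.148.

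Among the receptors known from T cells, Cxcr6, whose membrane-bound ligand Cxcl16 is made by myeloid cells, was the most abundant. It was at 10.4 ± 1.26 in CD8 2, 8.93 in γδ T cells, 8.85 in CD8 1 and 8.56 in CD8 3, all overlapping, and then dropped without overlap to 4.44 in CD8 4, the cluster with proliferation genes. CD4 cells were at 1.80. CD8 T cells held 84.0% of all Cxcr6 UMIs of control tumors. Cxcr3, the receptor of the interferon-induced Cxcl9 and Cxcl10, was far scarcer, at 0.623 ± 0.172 in Tregs, 0.53 in CD8 4 and 0.462 in CD8 1. Ccr8, a receptor of Ccl1 and Ccl8 known on Tregs in tumors, was similarly scarce, at 0.374 in CD8 4, 0.362 ± 0.0504 in Tregs and 0.284 in CD8 2. Neighboring clusters in both orders overlapped, CD8 4 resting on 2 tumors. Tregs carried both receptors, yet CD8 T cells held 49.0% of the Ccr8 UMIs against 38.2% in Tregs.

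Ccr7 and Xcr1 are known from dendritic cells. Ccr7, which follows Ccl19 and Ccl21 to the lymph node, was at 25.8 ± 3.76 in DC 1, against 1.93 ± 1.32 in DC 2, 1.39 in CD4 cells and 0.920 in Tregs. No tumor of another cluster reached those of DC 1, while the other 3 overlapped. DC 1 held 78.9% of all Ccr7 UMIs of control tumors. Xcr1, the receptor of Xcl1 on dendritic cells that cross-present antigen to CD8 T cells, was almost at the detection limit: 63 UMIs in all control cells, 36 of them in DC 2. Those 36 lay in 5 of 95 DC 2 cells, with up to 14 in a single cell, and the DC 2 tumors (0 to 0.370) overlapped those of CD8 2 (0 to 0.107). Cxcr4 was the opposite case, present in every cluster. It was highest in the shallow eosinophil cluster at 15.9 ± 0.606 (tumors 15.1 to 16.6), then in neutrophils at 8.79 ± 1.16 and γδ T cells at 6.53 ± 3.38, with no overlap between eosinophils and neutrophils.

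The genes whose control levels over the 16 clusters resembled a receptor most were named by Pearson's r, as a description in which clusters share libraries and depth. Cxcr2 tracked Lrg1 (r = 0.996), Steap4 (0.994) and S100a8 (0.991), the last a gene of the neutrophil list. Cxcr6 tracked Pde11a (0.969), Cd3g (0.967), a gene of the CD3 part of the T cell receptor complex, and Thy1 (0.964). Ccr8 tracked Traj27 (0.956), A430093F15Rik (0.956) and Ctla4 (0.953), an inhibitory receptor of Tregs and activated T cells. Ccr2 tracked AI504432 (0.955), Ly6e (0.923) and Tmem192 (0.874), and Ccr7 tracked Cd200 (0.942), 1110032F04Rik (0.906) and Tbc1d4 (0.880). For Cxcr3 they were 2610021A01Rik (0.967), Rragb (0.958) and Zdhhc15 (0.950), and for Cxcr4 Osbpl9 (0.932), Gng12 (0.877) and Bambi (0.875). Cx3cr1 (at most 0.842, with Pttg1ip, then Tpcn1 and Pofut2) and Xcr1 (at most 0.781, with Ptk2, then Grm8 and Cacna1e) had weaker companions. Among the 9 receptors, Ccr8 and Cxcr3 were most alike (r = 0.90), and Ccr2 and Ccr7 most opposed (r = -0.64).

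Control and GC tumors were compared by limma on log2 of the tumor means plus 0.1, for each class over the tumors that gave 10 or more of its cells, and for genes whose mean reached 0.2 per 10000. Genes passed at an adjusted p under 0.05 (Benjamini-Hochberg over all genes tested), and log2 values understate the change of low genes. Over all CD45+ cells, where fewer cells of a type and less RNA per cell cannot be told apart, 6.15% of the 6471 genes tested passed, and 1 of the 7 receptors tested did (median log2 difference of the 7, 0.10). The median of all genes was -0.11 there on this scale and 0.01 under the TMM scaling of edgeR, a general shift to be set against every change below. The calls over all genes split into 151 higher and 247 lower, and under edgeR into 377 and 233. Cx3cr1 fell by 0.90 on the log2 scale (SE 0.21, limma adjusted p = 0.0307), from 0.891 ± 0.141 to 0.445 ± 0.152 per 10000 (n = 5 and 5), and no GC tumor reached the lowest control tumor. The call was lost when any 1 of the control tumors was left out (adjusted p up to 0.0944). Ccr2 was at 6.47 ± 0.612 in control and 2.40 ± 1.23 in GC tumors, also without overlap, but missed the threshold with a log2 difference of -1.69 (limma adjusted p = 0.0545). Ccr7, Cxcr2, Cxcr3, Cxcr4 and Cxcr6 did not pass, with overlapping groups in each, and Ccr8 and Xcr1 were too low to be tested.

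CD8 T cells, the killers of the infiltrate, were the class with the most GC cells: 880 control and 107 GC cells. GC tumors 2, 3 and 5 had the 10 cells needed for the fit, while GC tumors 1 and 4, with 7 and 9 cells, stayed out and are quoted as levels only. Of the 7 receptors tested there 4 passed, 2 higher and 2 lower after GC, where 5.02% of the 6158 genes tested passed. The calls over all genes split into 140 higher and 169 lower, and under edgeR into 240 and 140. Cxcr2 and Xcr1 were under the filter.

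Ccr2 in CD8 T cells was at 5.70, 4.43, 4.92, 4.29 and 5.08 in control tumors 1 to 5, and at 0.722, 0.553, 1.79, 1.13 and 1.30 in GC tumors 1 to 5. All GC tumors, the thin ones included, lay below all control tumors. It fell by 2.05 on the log2 scale (SE 0.27, limma adjusted p = 0.00171), from 4.88 ± 0.559 (n = 5) to 1.22 ± 0.624 (n = 3). The share of CD8 T cells with a Ccr2 UMI was 70.8% in control and 40.2% in GC cells, and at an equal 1000 UMIs per cell 32.5% and 11.1% (2 control cells and 1 GC cell were shallower and left out). In neutrophils, which are not known to use Ccr2, the shares were 11.1% of control and 2.27% of GC cells at median depths of 4220 and 5882 UMIs, against 6826 and 9741 in CD8 T cells.

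Cxcr6, a receptor of resident and effector CD8 T cells in tissue, was at 10.0, 9.25, 9.91, 7.73 and 9.52 in control tumors and 2.43, 7.01, 6.33, 4.26 and 4.84 in GC tumors 1 to 5. Again no GC tumor reached a control tumor, though the gap was narrow at 7.01 against 7.73. Cxcr6 fell by 0.62 on the log2 scale (SE 0.14, limma adjusted p = 0.0270), from 9.28 ± 0.917 to 6.06 ± 1.11. The call was lost in 5 of the 8 fits that left out a tumor, with adjusted p up to 0.0801. Nearly all CD8 T cells of both groups carried it at full depth, with a UMI in 93.1% of control and 89.7% of GC cells. At 1000 UMIs per cell the shares were 55.6% and 36.9%, and among TAMs, a class that should lack Cxcr6, they were 3.46% and 2.33% without thinning at median depths of 12883 and 17855 UMIs.

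Cxcr4, the receptor of the stromal chemokine Cxcl12, moved the other way. It was at 1.85, 0.953, 1.33, 1.35 and 1.26 in control tumors and 4.11, 2.21, 3.42, 3.34 and 4.11 in GC tumors 1 to 5. Every GC tumor was above every control tumor. It rose by 1.19 on the log2 scale (SE 0.22, limma adjusted p = 0.0105), from 1.35 ± 0.323 to 3.25 ± 0.959. A Cxcr4 UMI was found in 38.4% of control and 68.2% of GC CD8 T cells, and in 11.0% and 26.3% at 1000 UMIs. No class of these leukocytes lacked Cxcr4, so its background share could not be measured.

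**Figure D2:**
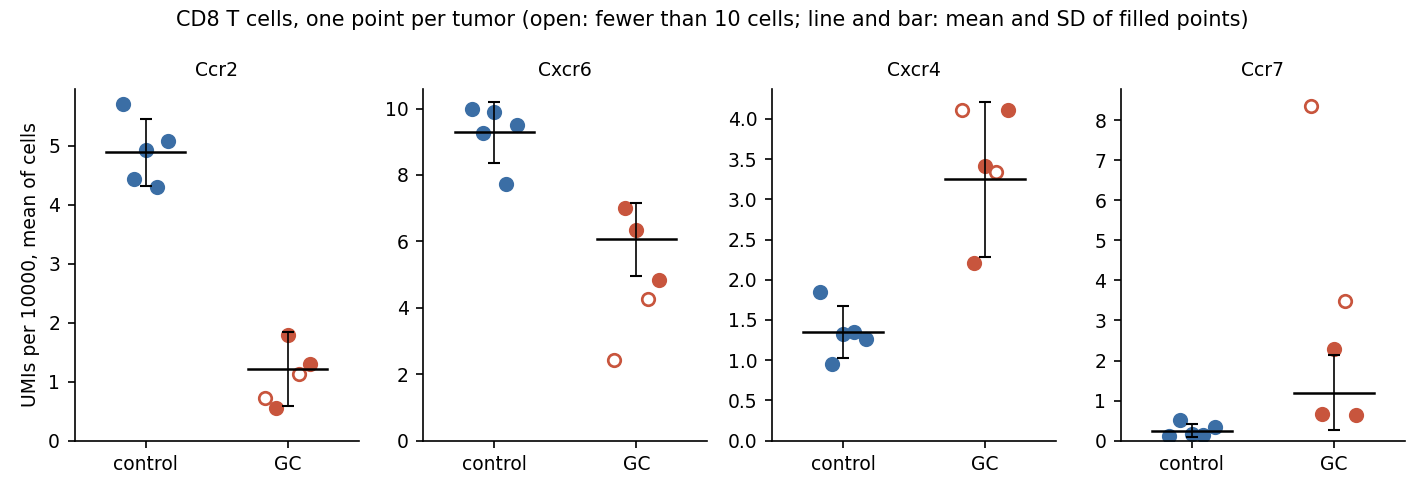
Levels of Ccr2, Cxcr6, Cxcr4 and Ccr7 in CD8 T cells, in molecules per 10000 UMIs on linear axes, 1 point per tumor, with GC tumors of fewer than 10 cells as open points and lines and bars at the mean and SD of the filled points. For Ccr2 and Cxcr6 the GC tumors sit below all control tumors, and for Cxcr4 and Ccr7 above them.

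All 3 differences had the same direction in each of the CD8 clusters, as levels pooled over cells. Ccr2 was 6.09 in control and 2.36 in GC cells of CD8 1, 3.36 and 0.550 in CD8 2, and 6.00 and 1.73 in CD8 3, which had 7 GC cells. Cxcr6 was 9.08 and 5.16, 10.6 and 5.79, and 8.87 and 3.61 in the same order. Cxcr4 was 1.24 and 4.81 in CD8 1, 1.30 and 2.42 in CD8 2, and 1.20 and 5.96 in CD8 3. Refitted on CD8 1 alone, all 3 passed again, with log2 differences of -1.17 for Ccr2 (limma adjusted p = 0.00129), -0.76 for Cxcr6 (0.00324) and 1.48 for Cxcr4 (0.00771).

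Combinations of receptors in single CD8 T cells are described over pooled cells. Cells with UMIs of both Ccr2 and Cxcr6 were 66.9% of control and 39.3% of GC CD8 T cells, and cells with Cxcr6 but no Ccr2 were 26.1% and 50.5%. Cells with both Cxcr4 and Cxcr6 were 35.9% and 65.4%. Cells with Ccr2 and no Cxcr4 were 42.8% in control and 7.48% in GC tumors.

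Macrophage and monocyte markers were at lower sums in the GC CD8 T cells. All 8 macrophage markers were above 0 in control CD8 T cells, summing to 0.577 to 1.09 per 10000 by tumor, against 6 of 8 in GC CD8 T cells, summing to 0.113 to 0.266, with Adgre1 and Mrc1 at 0. The 6 monocyte markers other than Ccr2 summed to 7.18 to 12.7 in control and 3.41 to 4.01 in GC tumors, with Vcan and Fn1 at 0 after GC. A UMI of the macrophage complement genes C1qa, C1qb or C1qc was found in 15.2% of control and 5.61% of GC CD8 T cells. Without those cells, Ccr2 differed by -1.99 (limma adjusted p = 0.00127), Cxcr6 by -0.64 (0.0202) and Cxcr4 by 1.28 (0.00519) on the log2 scale, and all 3 calls were kept. Control CD8 T cells with and without C1q had similar Ccr2 (4.89 and 4.90) and Cxcr6 (9.96 and 9.43), so leaving cells out could move these little. Ly6c2, one of the 6 monocyte markers, was at 7.26 in control and 1.48 in GC CD8 T cells without C1q, in 59.4% and 30.7% of cells. The monocyte sum is therefore not read as a measure of myeloid RNA.

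The other receptors of CD8 T cells did not pass. Ccr8 was at 0.173 to 0.364 in control and 0 to 0.489 in GC tumors, Cxcr3 at 0.275 to 0.424 and 0.0767 to 0.891, and Cx3cr1 at 0.823 to 1.55 and 0.446 to 1.19, all with overlap over the 5 tumors of each group. Their log2 differences in the fit were 0.57, -0.42 and -0.34 (limma adjusted p = 0.183, 0.477 and 0.448).

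Ccr7, the receptor that naive and central memory T cells use to enter lymph nodes, passed in CD8 T cells with its UMIs in few cells. It was at 0.111, 0.511, 0.154, 0.139 and 0.336 in control tumors and 8.36, 0.674, 2.28, 3.49 and 0.645 in GC tumors 1 to 5, the first of the GC tumors resting on 7 cells. The GC tumors lay above all control tumors but spread widely among themselves. In the fit of GC tumors 2, 3 and 5 it rose by 1.79 on the log2 scale (SE 0.44, limma adjusted p = 0.0406), from 0.250 ± 0.171 to 1.20 ± 0.936. The call did not hold under edgeR (adjusted p = 0.101) or without the cells holding C1q UMIs (1.51, limma adjusted p = 0.121). A Ccr7 UMI was in 6.70% of control and 12.1% of GC CD8 T cells, and at 1000 UMIs in 1.70% and 6.79%. In neutrophils, which should lack Ccr7, it was in 4.32% of control and 0 of 44 GC cells, a count that could hide a share as high as 6.82%, so the unthinned control share was little above background.

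Most of that Ccr7 RNA sat in cells with at least 3 UMIs. In control tumors 12 of 880 CD8 T cells were of this kind (1.36%, exact 95% binomial interval 0.707 to 2.37), and they held 102 of the 155 Ccr7 UMIs. In GC tumors 9 of 107 were (8.41%, 3.92 to 15.4), with 3 to 57 UMIs each, and they held 222 of 226. They came from all 5 tumors in both groups. By cluster, 10 of the 12 control cells and all 9 GC cells belonged to CD8 2, where they made up 3.72% of 269 control cells (1.80 to 6.73) and 19.6% of 46 GC cells (9.36 to 33.9). These intervals cover counting error only, and the cut of 3 UMIs was set for this description. The cut was not corrected for depth, and CD8 2 cells had medians of 7889 UMIs in control and 10204 in GC tumors.

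**Figure D3:**
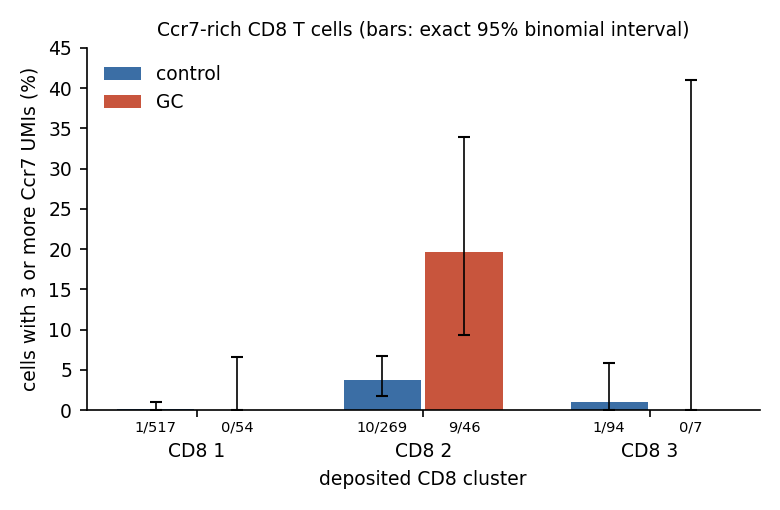
Percent of CD8 T cells with at least 3 Ccr7 UMIs in each CD8 cluster, control beside GC, with exact 95% binomial intervals as bars and the cell counts below. In CD8 2 the share is 3.72% in control and 19.6% in GC cells, and in CD8 1 and CD8 3 no GC cell reached it. The shares are not corrected for the greater depth of the GC cells.

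Other genes of the Ccr7-rich cells were read from the same pooled cells. Cd3e, a T cell receptor subunit, was detected in 11 of the 12 control and all 9 GC cells. Cd8a, the CD8 coreceptor, was detected in 9 of the 12 control and 5 of the 9 GC cells, against 742 of the 868 other control and 88 of the 98 other GC cells. Of 5 markers of the Ccr7-positive mature dendritic cell, Fscn1 and Ccl22 were at 0 in both groups, Cacnb3, Il4i1 and Socs2 had 1 UMI each in the control cells, and they had 0, 1 and 2 UMIs in the GC cells. Ccr2 was nearly missing from them, with 3 UMIs over the 12 control cells and 0 over the 9 GC cells. Cxcr6 was not, with UMIs in 8 of the 9 GC cells.

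Of the 4 fits, that of TAMs had the highest share of genes passing, 21.2% of 5988 tested, on 723 control and 43 GC cells, and 3 of the 4 receptors tested passed (1 higher, 2 lower). The receptor that was higher, Cxcr2, reached the filter only through the GC tumors, so this count is not read against that share. The calls over all genes split into 411 higher and 859 lower, and under edgeR into 415 and 255. GC tumors 2 and 3, with 17 and 16 cells, entered the fit. GC tumors 4 and 5 had 3 and 7 TAMs and GC tumor 1 had none.

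Cxcr2 in TAMs was at 0.0198, 0.0304, 0.0141, 0.0390 and 0.10 in control tumors, and at 0.749, 0.816, 0.182 and 0.732 in GC tumors 2 to 5. The lowest GC tumor, with 3 cells, was still above the highest control tumor. It rose by 2.68 on the log2 scale (SE 0.27, limma adjusted p = 1.67e-04), from 0.0408 ± 0.0347 (n = 5) to 0.783 ± 0.0469 (n = 2), and it entered the test only because of its GC level. With no filter, over 17522 genes, the limma adjusted p was 3.53e-04. Without GC tumor 2 or GC tumor 3 it fell under the filter and could be tested only with no filter, where it differed by 2.73 and 2.62 (limma adjusted p = 1.28e-04 and 1.13e-04), the single GC tumor left being assumed to vary like the control tumors. A Cxcr2 UMI was in 2.35% of control and 44.2% of GC TAMs, and at 1000 UMIs per cell in 0.312% and 6.71%. Among CD8 T cells, which should lack Cxcr2, it was in 0.341% of 880 control cells and 0 of 107 GC cells, a count that could hide a share as high as 2.80%. The median depths of TAMs were 12883 and 17855 UMIs, above the 6826 and 9741 of CD8 T cells.

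Cx3cr1 in TAMs was at 1.51, 1.51, 1.35, 1.86 and 2.14 in control tumors and 0.415, 0.185, 0.203 and 0.0552 in GC tumors 2 to 5. All GC tumors were far below the control range. It fell by 2.19 on the log2 scale (SE 0.24, limma adjusted p = 3.21e-04), from 1.67 ± 0.318 to 0.300 ± 0.163. A Cx3cr1 UMI was in 39.7% of control and 14.0% of GC TAMs, and at 1000 UMIs in 11.6% and 2.27%, while DC 1, low in Cx3cr1, had it in 6.19% of control cells at a median of 15827 UMIs.

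Ccr2 remained abundant in TAMs, at 9.83 to 12.1 in control tumors and 8.73, 8.45, 10.6 and 5.22 in GC tumors 2 to 5. Tumors overlapped once the 3-cell tumor was counted. Its fall by 0.33 on the log2 scale (SE 0.11, limma adjusted p = 0.0471) was lost under edgeR (adjusted p = 0.376) and in 6 of the 7 fits that left out a tumor. Cxcr4, at 4.13 to 5.09 in control and 5.29, 5.94, 4.33 and 7.76 in GC tumors, differed by 0.31 (SE 0.12, limma adjusted p = 0.0800) and did not pass.

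Monocyte markers were at higher sums in the TAM cluster of GC tumors. The monocyte list without Ccr2 summed to 45.6 to 56.8 in control and 75.5 to 97.2 in GC tumors, with all 6 genes above 0 in both, and the macrophage list to 55.0 to 74.9 and 60.6 to 80.8. The neutrophil list without Cxcr2 summed to 4.01 to 4.55 and 4.80 to 7.34, with Retnlg and G0s2 at 0 after GC. C1q UMIs were found in 71.5% of control and 67.4% of GC TAMs, and the cells were split by this. Without C1q, Cxcr2 was 0.0464 in control cells and 1.62 in GC cells, where 10 of 14 cells had a UMI, and Ly6c2, a marker of inflammatory monocytes, was 3.19 and 12. Cx3cr1 in the same cells was 0.961 in control and absent from all 14 GC cells. With C1q, Cxcr2 was 0.0266 and 0.304, too low on average to pass the filter, and with no filter it differed by 1.69 (limma adjusted p = 0.00445). Cx3cr1 in those cells fell by 1.90 on the log2 scale (limma adjusted p = 0.00206). Ccr2 there fell by 0.70 (limma adjusted p = 0.0134). The monocyte list without Ccr2 was also higher in neutrophils of GC tumors, at 68.1 to 73.8 against 3.05 to 8.84 in control tumors. Its higher sum was thus not particular to TAMs. Whether monocyte RNA had a part in the Cxcr2 result was not tested further.

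**Figure D4:**
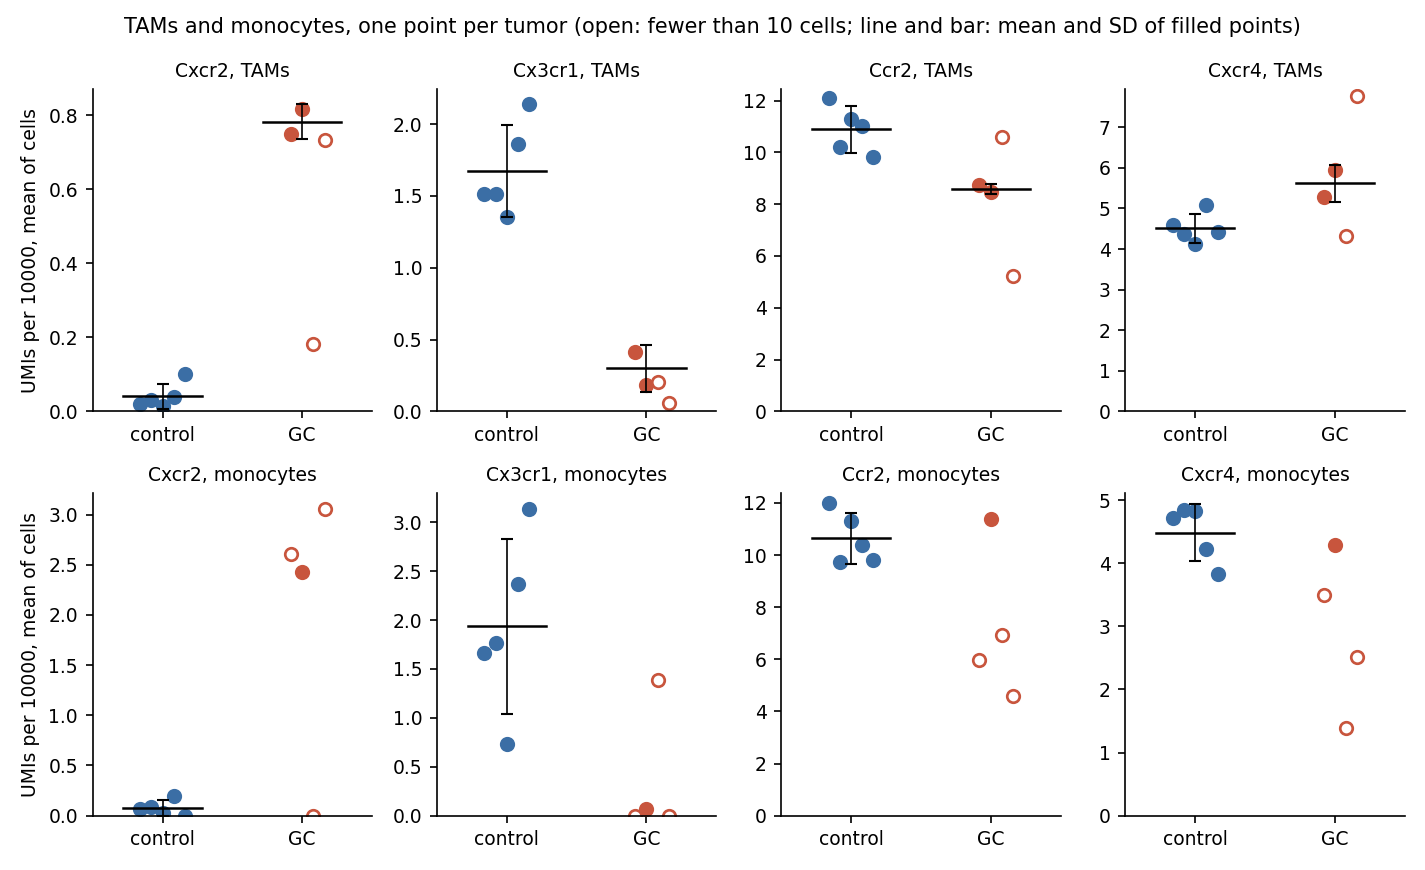
Cxcr2, Cx3cr1, Ccr2 and Cxcr4 in TAMs (upper row) and monocytes (lower row), in molecules per 10000 UMIs on linear axes, 1 point per tumor, with tumors of fewer than 10 cells as open points and lines and bars at the mean and SD of the filled points. In TAMs all GC tumors are above the control tumors for Cxcr2 and below them for Cx3cr1, while Ccr2 and Cxcr4 overlap once the open points are counted.

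Monocytes had only 21 GC cells, and 1 GC tumor with 10 or more, so no test was run. Cxcr2 was at 0 to 0.199 in control tumors and at 2.61, 2.43, 0 and 3.06 in GC tumors 2 to 5, which held 8, 10, 1 and 2 monocytes. The only GC tumor at 0 was the one with a single cell. Pooled over cells it was 0.0778 (exact 95% Poisson interval 0.0563 to 0.105) in control and 2.54 (2.03 to 3.15) in GC tumors, and all 84 GC UMIs lay in Monocytes 1, in 15 of its 18 cells. Cx3cr1 was 1.51 (1.41 to 1.62) and 0.0605 (0.00733 to 0.219), and Ccr2 11.0 (10.7 to 11.3) and 8.53 (7.56 to 9.59). Cxcr2 UMIs were divided differently between classes: neutrophils held 87.3% of all Cxcr2 UMIs in control tumors and 57.4% in GC tumors, monocytes 6.55% and 25.5%, and TAMs 4.12% and 15.5%.

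Neutrophils themselves, in which 4.83% of 4411 genes tested passed, had 0 of 4 receptors called by limma over 5 control and 2 GC tumors, also 0 by edgeR, and 1 of the 4 at an unadjusted p under 0.05. The calls over all genes split into 92 higher and 121 lower, and under edgeR into 116 and 87. Cxcr2 was at 7.71, 8.04, 9.59, 8.10 and 5.17 in control tumors and 4.05, 9.18, 5.96, 5.00 and 6.26 in GC tumors 1 to 5. The groups overlapped, and the log2 difference over the tumors of the fit was -0.03 (SE 0.26, limma adjusted p = 0.965). Cxcr4, which rises on aged neutrophils, was at 7.87 to 10.7 in control and 3.38 to 15.6 in GC tumors, with a log2 difference of -0.43 (SE 0.25, limma adjusted p = 0.373). Ccr2 was the receptor at an unadjusted p under 0.05 (limma unadjusted p = 0.0171, limma adjusted p = 0.161). It was low in control neutrophils (0.310 ± 0.203) and at 0 in both GC tumors of the fit. Ccr2 reached the filter there only through the control tumors, so its unadjusted p is not read as a result. Whether the Cxcr2 change differed between TAMs and neutrophils was not tested.

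The remaining classes were too small in GC tumors for a test, and their pooled levels are given with exact 95% Poisson intervals. These cover counting error only and treat the UMIs of a cell as independent. Ccr2 was also lower in Tregs and γδ T cells of GC tumors. In Tregs it was 11.2 (10.9 to 11.6) in 486 control cells and 5.64 (4.41 to 7.12) in 14 GC cells. By tumor that was 10.4, 10.1, 10.3, 11.1 and 15.2 against 1.23, 4.13, 5.38, 6.71 and 7.30, so no GC tumor reached the control range, although each rested on 1 to 5 cells. In γδ T cells Ccr2 was 7.28 (6.35 to 8.30) and 2.97 (1.88 to 4.46). In CD4 cells it was low in both, at 1.10 (0.955 to 1.25) and 1.63 (0.949 to 2.61), and in DC 2 it was 3.91 and 4.01. NK cells had Ccr2 at 4.62 (4.21 to 5.07) and 3.52 (2.34 to 5.09) on 4 GC cells, with overlapping intervals.

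Pooled Cxcr6 was lower in GC γδ T cells, at 9.45 (8.39 to 10.6) and 3.49 (2.30 to 5.07), and in CD4 cells, at 1.74 (1.56 to 1.93) and 0.671 (0.270 to 1.38). The shares of cells with a Cxcr6 UMI were 95.3% and 63.6% in γδ T cells and 46.6% and 40.0% in CD4 cells. Their exact 95% binomial intervals overlapped in both classes. In Tregs it was 0.609 (0.53 to 0.700) and 0.159 (0.0192 to 0.574), with overlapping intervals and only 2 UMIs in GC cells, and the share of cells with a UMI was 14.6% and 14.3%. Cxcr4 was 3.08 and 5.27 (3.97 to 6.86) in CD4 cells and 2.88 and 5.75 (4.69 to 6.99) in DC 2, while in Tregs (4.87 and 5.72), eosinophils (16.7 and 15.5) and γδ T cells (6.72 and 5.94) the intervals overlapped. Pooled Cxcr4 was lower in NK cells, at 2.97 (2.64 to 3.33) and 1.26 (0.604 to 2.32) on 4 GC cells, and in monocytes, at 4.57 (4.40 to 4.76) and 3.63 (3.01 to 4.34). The shares of cells with a Cxcr4 UMI were not lower there, at 64.5% and 75.0% in NK cells and 85.5% and 90.5% in monocytes. Ccr7 stayed high in DC 1, the mature dendritic cells, at 28.6 (27.8 to 29.5) in 97 control and 31.8 (29.5 to 34.3) in 10 GC cells. In Tregs it was 0.999 (0.893 to 1.11) and 2.70 (1.87 to 3.78). Pooled Ccr7 was lower in CD4 cells, at 1.39 (1.23 to 1.56) and 0.192 (0.0232 to 0.693) on 10 GC cells. The shares of CD4 cells with a UMI, 27.7% and 10.0%, had overlapping exact 95% binomial intervals (22.2 to 33.6 and 0.253 to 44.5). In DC 2 pooled Ccr7 was 1.65 (1.45 to 1.86) and 0.0564 (0.00143 to 0.314) on 9 GC cells, the 253 control UMIs lying in 16 of 95 cells. The shares of DC 2 cells with a UMI, 16.8% and 11.1%, also had overlapping intervals (9.94 to 25.9 and 0.281 to 48.2). Xcr1 had 8 UMIs in all GC cells, 6 of them in 1 cell of DC 2, too few for a comparison.

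**Figure D5:**
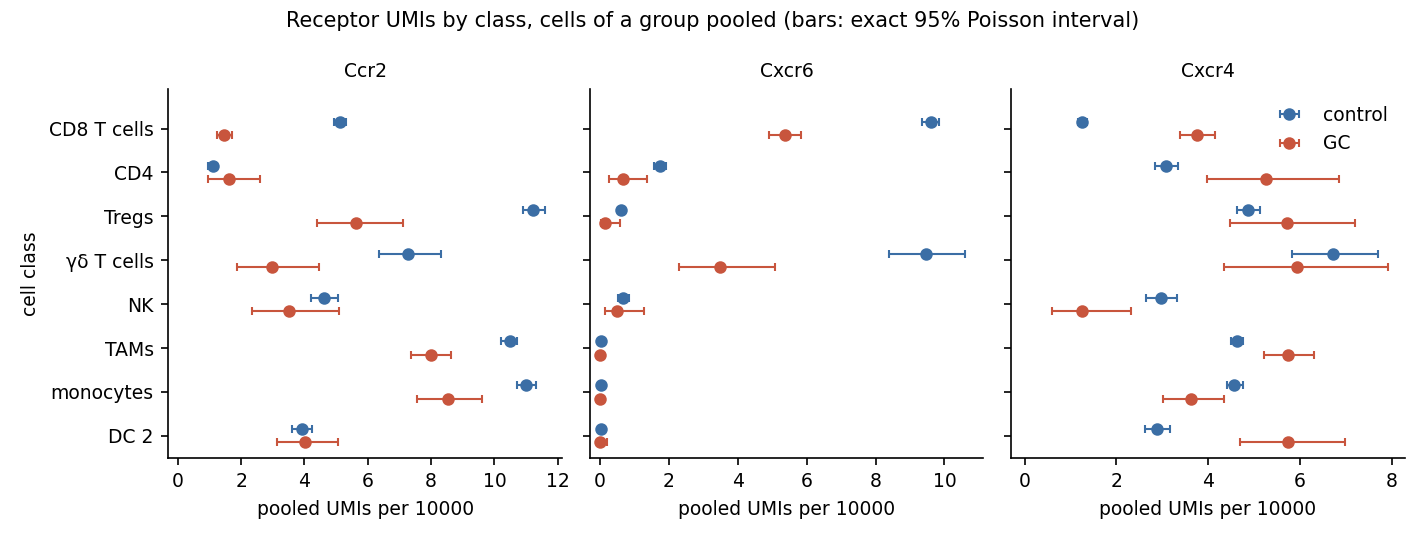
Ccr2, Cxcr6 and Cxcr4 UMIs per 10000 in 8 classes, the cells of a group pooled, control beside GC on linear axes, with exact 95% Poisson intervals as bars. The GC points for Ccr2 and Cxcr6 lie below the control points in CD8 T cells, Tregs (with overlapping intervals for Cxcr6) and γδ T cells, and those for Cxcr4 lie above them in CD8 T cells, CD4 cells and DC 2.

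The classes made up different shares of the cells in control and GC tumors, and the classes that held a receptor's UMIs differed too. CD8 T cells held 19.9% of all Cx3cr1 UMIs in control tumors and 72.8% in GC tumors, while the share of TAMs was 46.4% and 9.60%. The CD8 share of Cxcr4 UMIs was 6.17% and 25.9%, of Ccr8 UMIs 49.0% and 81.1%, and of Cxcr3 UMIs 39.0% and 71.0%. TAMs remained the class with the most Ccr2 UMIs, at 40.1% and 48.7% of them. DC 1 held 78.9% of Ccr7 UMIs in control and 73.0% in GC tumors, where CD8 T cells held another 23.2%.

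Of 15 other chemokine receptors examined, few were abundant enough to test; the median log2 difference of those tested was -0.44 over all CD45+ cells, -0.40 in CD8 T cells, -0.82 in neutrophils and -0.08 in TAMs, against -0.11, -0.09, 0.03 and -0.12 for all genes. The shares of all genes passing were 6.15%, 5.02%, 4.83% and 21.2% in the same order. Over all CD45+ cells 1 of the 4 tested passed: Ccr3, the eotaxin receptor of eosinophils, fell by 2.47 on the log2 scale (1.20 to 0.230 per 10000, limma adjusted p = 0.0196, edgeR adjusted p = 0.0137). In neutrophils 1 of 3 passed, Cxcr5, at 0.510 in control and 0 in both GC tumors of the fit (limma adjusted p = 0.0319), and it reached the filter only through the control tumors. That count is therefore not read against the share of all genes. None of 2 tested in CD8 T cells (1 at an unadjusted p under 0.05) and none of 3 in TAMs (0 at an unadjusted p under 0.05) passed by limma or edgeR.

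Of 18 ligands of the 9 receptors in the table, 9 were tested over all CD45+ cells and 1 passed: Cxcl16, the ligand of Cxcr6, fell by 1.12 on the log2 scale (2.77 to 1.29, limma adjusted p = 0.0286, edgeR adjusted p = 0.0777). The median log2 difference of the 9 was -0.18. Of all genes 6.15% passed there, 5.02% in CD8 T cells and 4.83% in neutrophils. In TAMs, where 21.2% of all genes passed, 2 of 7 ligands tested rose and 2 fell, with a median of 0.07. Ccl7, counted among those that fell, reached the filter only through the control tumors, so this count is not read against that share. Cxcl10, a ligand of Cxcr3, rose by 2.39 (1.92 to 11.6, limma adjusted p = 0.00466), and Cxcl2, a ligand of Cxcr2, by 1.17 (7.56 to 17.6, limma adjusted p = 0.00749). Ccl7, a ligand of Ccr2, fell by 1.79 (0.358 to 0.0241, limma adjusted p = 0.0149, over the filter only through the control tumors), and Cxcl16 by 0.47 (8.87 to 6.41, limma adjusted p = 0.0288), both calls that edgeR did not make (adjusted p = 0.301 and 0.0734). Ccl2, the main ligand of Ccr2, did not pass in TAMs, at a log2 difference of 0.07 (limma adjusted p = 0.951). None of 3 ligands passed by limma or edgeR in CD8 T cells (1 at an unadjusted p under 0.05), where Xcl1, the ligand of Xcr1, differed by -1.40 (limma adjusted p = 0.0529). None of 3 passed by either tool in neutrophils (0 at an unadjusted p under 0.05).

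Genes of receptor signaling and desensitization, 28 of which are in the table, had median log2 differences of -0.22 over all CD45+ cells, -0.24 in CD8 T cells, -0.08 in neutrophils and -0.20 in TAMs. None of 26 tested passed by limma over all CD45+ cells (1 by edgeR, 8 at an unadjusted p under 0.05), 3 of 24 fell in CD8 T cells and 1 of 25 rose in neutrophils, beside 6.15%, 5.02% and 4.83% of all genes passing. In CD8 T cells these were Rgs16 and Rgs3, which quench G protein signals, by 0.94 and 0.80 (limma adjusted p = 0.0455 and 0.0418), and the kinase subunit Pik3cd by 0.71 (limma adjusted p = 0.0102). The gene that rose in neutrophils was Rgs1, of the same family, by 2.10 on the log2 scale (0.633 to 2.64, limma adjusted p = 0.0224, edgeR adjusted p = 0.142), and it rose in TAMs by 1.05 (12.1 to 25.3, limma adjusted p = 3.75e-04). In TAMs 6 of 24 passed, a share close to the 21.2% of all genes there. Of these 3 rose, among them the motility GTPase Rac2 by 0.53 (limma adjusted p = 0.0420), and 3 fell, among them Elmo1, which links receptors to cell movement, by 0.88 (limma adjusted p = 0.00191) and the receptor kinase Grk3 by 0.75 (limma adjusted p = 0.0279, edgeR adjusted p = 0.121).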

How the data were processed

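Live CD45+ cells of 10 tumors were profiled on a 10x Chromium 3′ kit, 1 channel per treatment. Per the submitters' processing notes, reads were counted with Cell Ranger 7.1.0 on mm10, introns included, and handled in R 4.3.1 with Seurat 5.0.3 and Partek. The authors kept cells with a single hashtag, removed outliers in UMI count, genes and mitochondrial percent, and deposited the natural log of 1 plus UMIs per 10000, with a table giving each cell's UMI count, hashtag UMI count, mitochondrial percent, tumor and cluster. No further doublet call was made. Whole UMIs were recovered from 100% of values above 0 (tolerance 0.01), and these UMIs were summed per tumor for edgeR and DESeq2.

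Values were brought back to the linear scale and averaged over the cells of a tumor and class. Tumors with at least 10 cells were compared by limma 3.58.1 in R 4.3.3 (trend, robust, two-sided) on log2(mean + 0.1) for genes with a mean of at least 0.2, and edgeR 4.0.16 and DESeq2 1.42.0 served as alternatives. limma's adjusted p is Benjamini-Hochberg over all genes tested. Treatment is also the 10x channel, and p-values measure the spread between tumors only. Hashtag numbers name tumors and pair none. Total UMIs were 2735708 to 9869474 per control tumor and 139195 to 1235264 per GC tumor. Thinned shares are the expected share of cells with a UMI at 1000 UMIs per cell, and Poisson and binomial intervals are exact, at 95%. The fits were tested on simulated data. The 9 receptors were named in full, with at most 4 called genes per companion list and the main ligand of a called receptor, and 3 genes by likeness per receptor over the 16 clusters, among genes at 0.2 or more in at least 1 cluster. The receptors and all lists were chosen with earlier results of these data known. Some genes are not reported here, and the counts for the gene lists leave them out.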

Additional observations from a re-analysis of the deposited data

Results flagged for a closer look

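Of 29 sets of tumors checked for a value far from its group, 3 held one, and chance alone marks some sets of this number. Ccr2 over all CD45+ cells was at 7.56 per 10000 UMIs in control tumor 1, while the other control tumors were at 6.10 to 6.31. Cxcr2 over all CD45+ cells was at 2.79 in GC tumor 2, against 0.450 to 1.09 in the other GC tumors. Cxcr2 in TAMs was at 0.10 in control tumor 5, against 0.0141 to 0.0390 in the other control tumors and 0.182 to 0.816 in the GC tumors. Without control tumor 5 the Cxcr2 call in TAMs was kept (log2 difference 2.81, limma adjusted p = 3.75e-04).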

How the results depend on the processing

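Over 22 receptor values and 396 alternatives, 329 kept direction and side of the threshold, 35 lost a call, 13 gained one and 19 reversed. Ccr2 and Cxcr4 in CD8 T cells and Cx3cr1 in TAMs kept their calls in all alternatives run (19 each). Cxcr2 in TAMs kept its call in the 16 run. The filtered fits among them tested it only where its GC level was high enough, so this count is not read as support. Cxcr2 in TAMs fell under the filter without GC tumor 2, without GC tumor 3 and among cells with C1q UMIs, so those 3 were run with no filter. The log2 differences were 2.73 and 2.62, each on a single GC tumor, and 1.69 among cells with C1q UMIs (limma adjusted p = 0.00445).

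Calls over all CD45+ cells numbered 398, against 610 with edgeR, 1080 with DESeq2, 607 with at least 20 cells and 101 to 666 with 1 tumor left out. In CD8 T cells the 309 calls became 167 with no filter, 604 with at least 20 cells, 195 with at least 5 and 135 to 604 with 1 tumor left out. In neutrophils the 213 became 390 on the mean of deposited log values and 105 to 241 with 1 tumor left out, and in TAMs the 1270 became 670 with edgeR, 735 with DESeq2 and 867 to 2117 with 1 tumor left out (2117 without GC tumor 3), and 2198 and 2892 with no filter and without GC tumor 2 or 3. The cause was not tested.

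The call of Cx3cr1 over all CD45+ cells was lost with no filter (limma adjusted p = 0.0715) and without control tumor 1, 2, 3, 4 or 5 (0.0844, 0.0902, 0.0513, 0.0944 and 0.0792). That of Cxcr6 in CD8 T cells was lost with no filter (0.0708) and without control tumor 1, 2, 3 or 5 (0.0757, 0.0727, 0.0801 and 0.0732) or GC tumor 5 (0.0571). That of Ccr7 in CD8 T cells was lost in 10 of 18 alternatives, among them without control tumor 1, 3, 4 or 5 (0.0952, 0.0955, 0.104 and 0.0699) or GC tumor 3 (0.0733), and that of Ccr2 in TAMs in 13 of 19, among them without control tumor 1, 2, 3 or 4 (0.103, 0.0689, 0.0935 and 0.0926) or GC tumor 2 or 3 (0.0558 and 0.0806). Ccr2 over all CD45+ cells gained a call in 5, at the lowest without GC tumor 1 (limma adjusted p = 0.00104), and Cxcr4 in TAMs in 4, among them without GC tumor 2 (0.0463).

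The reversals were all of values that passed in no alternative run. Cxcr3 over all CD45+ cells was -0.04 with a pseudocount of 0.01, -0.09 with at least 20 cells and -0.09 to 0.43 with 1 tumor left out (-0.02 without GC tumor 4), and Cxcr6 there was 0.02 on deposited log values. In CD8 1 alone, Ccr8 was -0.62, Cxcr3 0.22 and Cx3cr1 0.26. Cxcr3 in CD8 T cells was 0.02 with edgeR, 0.00 with DESeq2, 0.06 with at least 20 cells, 0.08 with at least 5 and -0.66 to 0.06 with 1 tumor left out. In neutrophils, Cxcr2 was 0.07 on deposited log values and -0.34 to 0.27 with 1 tumor left out (0.05 without control tumor 3), and Cx3cr1 was -0.00 with edgeR, -0.04 with at least 5 cells and -0.31 to 1.31 with 1 tumor left out.

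Leaving out a GC tumor left 1 in neutrophils and TAMs, assumed to vary like the control tumors. At least 20 cells could not be run for neutrophils and TAMs, since no GC tumor had that many. The C1q splits and the fits that join no filter to another choice were chosen after seeing the data. No paired analysis was possible because hashtag numbers only name tumors and the labels tie no control tumor to a GC tumor. The GC arm is thin: a GC tumor gave 18 to 111 cells, so receptors below 0.2 per 10000 in a class, Xcr1 and Ccr8 in most, could not be compared at this depth.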
